A study of Homo sapiens with 4 samples.

Results

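The glycolysis and hypoxia genes described here are 30 listed gene symbols among the 26364 symbols of the count tables, and all 30 were found. They comprise 14 glycolytic enzymes, 2 glucose transporters, 3 regulators of glycolysis, 9 other targets of the hypoxia inducible factors (HIF), and 2 genes of the HIF alpha subunits. RNA was counted in NCI-H460, a cell line grown from a human non-small cell lung carcinoma. The 4 groups were cells given 4 Gy of gamma radiation and then DZNep, cells given 0 Gy and then DZNep, cells given 4 Gy and then DMSO, and cells given 0 Gy and then DMSO. DZNep (3-deazaneplanocin A, an inhibitor of S-adenosylhomocysteine hydrolase) was used at 2 uM, and drug or solvent was left on for 48 h. The labels name no low-oxygen treatment in any group. Each group was 1 library, with totals between 112461380 and 136594350 counts, and none has a replicate.

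Glycolysis splits glucose into pyruvate in the cytosol, and lactate dehydrogenase turns the pyruvate into lactate. HIF1A and EPAS1 encode alpha subunits that are hydroxylated by EGLN enzymes and destroyed while oxygen is plentiful. When oxygen is scarce the proteins persist, pair with ARNT and bind short DNA elements near genes of glucose uptake, glycolysis, blood vessel growth and mitophagy. Lung cancer cells commonly run glycolysis at a high rate in normal oxygen, so many of these genes are abundant in culture. RNA counts measure none of the HIF proteins.

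The promoters of 5 members are shown as examples and are not a full set. Of these, 4 belong to genes that rose or fell with DZNep, among them PFKP, the largest fall. A further 1 belongs to CA9, a classic HIF target that was too low to test. Each line covers 250 bases before and 50 after the RefSeq start site on GRCh38.p14, read 5′ to 3′ on the gene's strand. Capitals mark the core of the hypoxia response element, ACGTG or GCGTG on either strand, so CACGTG counts once per strand.
ALDOC, chr17:28576846-28577145, strand -: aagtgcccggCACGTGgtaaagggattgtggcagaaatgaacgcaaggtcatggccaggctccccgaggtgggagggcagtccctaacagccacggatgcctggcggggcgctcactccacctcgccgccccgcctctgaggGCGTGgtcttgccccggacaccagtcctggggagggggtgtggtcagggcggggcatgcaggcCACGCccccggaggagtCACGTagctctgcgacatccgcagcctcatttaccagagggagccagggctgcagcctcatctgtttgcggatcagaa
ADM, chr11:10304823-10305122, strand +: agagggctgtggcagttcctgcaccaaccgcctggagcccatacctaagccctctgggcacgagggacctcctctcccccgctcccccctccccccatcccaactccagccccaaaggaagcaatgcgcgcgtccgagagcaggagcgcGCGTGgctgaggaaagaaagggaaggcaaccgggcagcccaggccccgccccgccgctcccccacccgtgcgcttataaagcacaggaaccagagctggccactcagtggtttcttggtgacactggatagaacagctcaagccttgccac
CA9, chr9:35673678-35673977, strand +: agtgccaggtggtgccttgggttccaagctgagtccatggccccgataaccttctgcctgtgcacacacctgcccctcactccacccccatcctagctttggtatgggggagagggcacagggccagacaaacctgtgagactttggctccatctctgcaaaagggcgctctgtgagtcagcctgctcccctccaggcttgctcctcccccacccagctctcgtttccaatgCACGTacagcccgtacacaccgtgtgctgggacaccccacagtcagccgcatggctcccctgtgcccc
BNIP3, chr10:131981874-131982173, strand -: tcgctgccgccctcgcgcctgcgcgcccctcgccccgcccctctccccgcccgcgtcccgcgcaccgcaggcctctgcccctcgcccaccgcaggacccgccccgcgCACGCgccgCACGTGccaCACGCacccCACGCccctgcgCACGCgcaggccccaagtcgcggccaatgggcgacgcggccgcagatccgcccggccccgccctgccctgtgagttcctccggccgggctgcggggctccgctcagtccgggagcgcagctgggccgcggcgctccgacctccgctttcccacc
PFKP, chr10:3067720-3068019, strand +: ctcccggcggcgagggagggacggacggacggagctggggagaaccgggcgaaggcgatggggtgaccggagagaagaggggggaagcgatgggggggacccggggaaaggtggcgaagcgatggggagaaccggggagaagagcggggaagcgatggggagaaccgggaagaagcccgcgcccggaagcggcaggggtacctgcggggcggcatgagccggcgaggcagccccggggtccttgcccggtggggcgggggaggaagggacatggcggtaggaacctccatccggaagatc
ALDOC and ADM rose with DZNep, and BNIP3 and PFKP fell. The core occurred 5 times for ALDOC, 1 time for ADM, 1 time for CA9, 6 times for BNIP3 and 0 times for PFKP. The median over the 26 member promoters at hand was 1. RefSeq promoters were at hand for 26 members; those of SLC2A3, VEGFA, BNIP3L and NDRG1 were not used here. At least 1 core was present in 20 of the 26 (76.92%), against 48.39% of 27305 promoters of the same length. The member promoters were also richer in G and C, with a median of 70.17%, against 58.33% over all promoters, and the part this plays in the share was not tested. Among members that rose with DZNep, 5 of 6 promoters held a core, and among those that fell, 3 of 4 did. A match is only a run of letters and does not show binding.

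The libraries carried the keratin RNAs of an epithelial line. KRT8 stood between 709 and 2048 CPM (counts per 1000000, scaled between libraries by the TMM method), while EPCAM and CDH1 were under 1 CPM in all 4 libraries. HBB, SCGB1A1 and ALB had 0 counts throughout, which allows up to 0.0267 CPM, and 16 markers of other cell types summed to 28.1 and 19.6 CPM with DZNep at 4 and 0 Gy, against 122 and 36.4 CPM with DMSO. ACTA2 made up 95.4 CPM of the sum in DMSO at 4 Gy and 3.85 to 13.1 CPM in the other 3 libraries. Of those 16 markers 3 were tested (COL1A1, COL3A1 and ACTA2) and all 3 fell with DZNep, against 12.3% of all tested genes. With radiation 1 of the 3 rose, against 2.17% of all tested genes. Of 5 tested markers of the line itself, 2 rose with DZNep and 0 fell, against 10.8% and 12.3% of all tested genes. The 7 listed markers of the line summed to 5082 and 4651 CPM with DZNep at 4 and 0 Gy, against 2752 and 2370 CPM with DMSO. The part of these markers in the results was not tested. In bulk RNA, fewer cells with a transcript and less of it per cell cannot be told apart. Of the 30 members, 28 reached 1 CPM in at least 2 libraries and were tested, and the lowest of their values in any library was 2.17 CPM; CA9 and ANKRD37 did not enter. The effects of drug and dose were fitted together, additively, with edgeR (quasi-likelihood test), and adjusted p-values were taken over 13378 genes by Benjamini-Hochberg at a threshold of 0.05. Nothing in the labels shows that the libraries came from separate cultures, and no spread between like libraries was measured. The error behind the p-values rests on 1 residual degree of freedom, the departure from additive effects of drug and dose. It was moderated by the spread over all tested genes (11.5 prior degrees of freedom). Ratios between 2 libraries carry 95% intervals for counting error only and no test.

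With DZNep, both glucose transporter genes and both HIF alpha subunit genes rose, NDRG1 rose most of the 28 tested members, and PFKP and PFKL, which encode 2 of the phosphofructokinase isoforms, fell. For 8 of the 14 glycolytic enzymes the fitted difference was no larger than 0.22 on the log2 scale. In all, 8 of 28 tested members rose (28.6%), against 10.8% of all tested genes, and 4 fell (14.3%), against 12.3%. The members were chosen with earlier results of these data known, so these shares are no independent test. Changes in either direction made up 23.1% of all tested genes, and the other 16 members did not pass the test. Among the 1703 tested genes at a mean of 100 CPM or more, 14.5% rose and 10.3% fell. Without dose in the model, 3 rises (NDRG1, ADM and SLC2A1) and 1 fall (PFKP) passed, and the remaining 8 calls were lost.

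**Figure D1:**
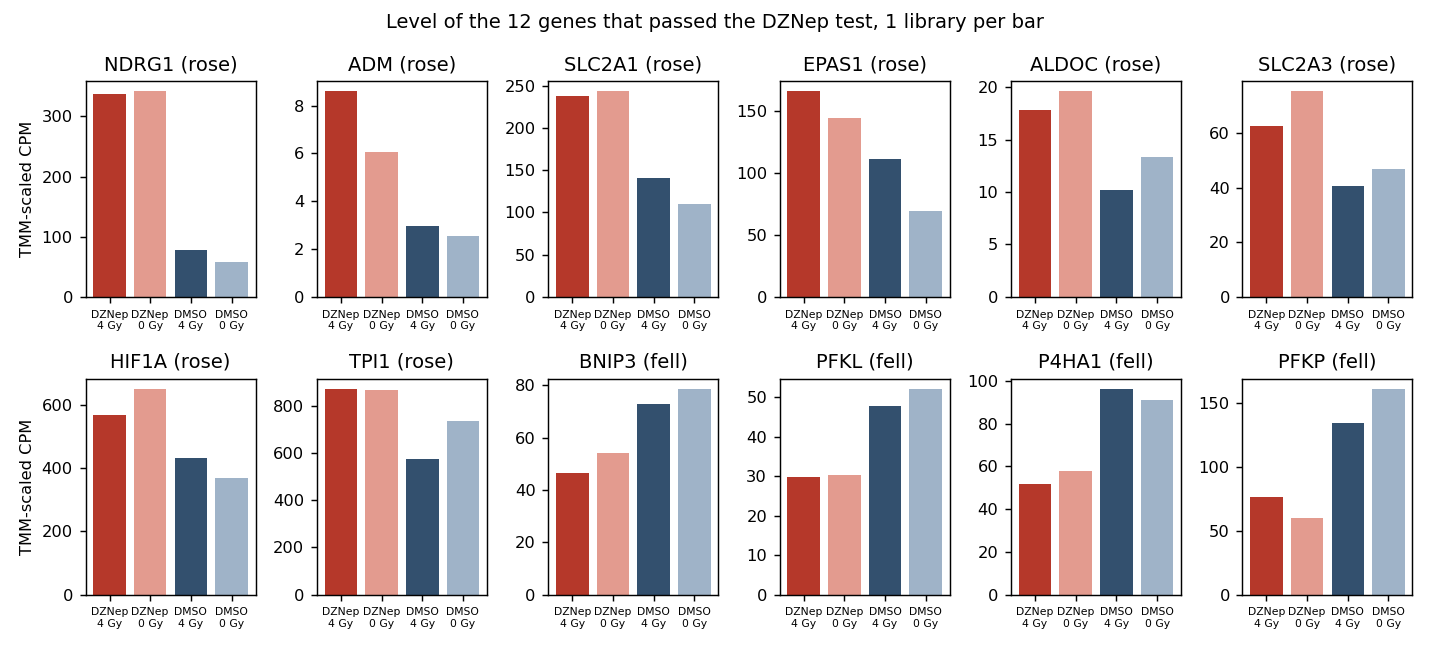
Scaled CPM (vertical axis, linear, from 0) of the 12 members that passed the DZNep test, with 1 bar per library and no error bars because each group has 1 library. For all 12 genes both DZNep bars lie on the same side of both DMSO bars, from NDRG1 (337 and 342 CPM with DZNep at 4 and 0 Gy, 77.4 and 58.6 CPM with DMSO) to PFKP (76.2 and 59.95 CPM with DZNep, 135 and 161 CPM with DMSO). The 12 genes were picked by the test on these same libraries, so this separation adds no support to it. The share of all tested genes that separate in this way was not counted.

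Of the 14 enzymes, PFKP and PFKL had the largest fitted differences. PFKP encodes the platelet-type isoform of the enzyme that commits glucose to glycolysis. Its level was 76.2 and 59.95 CPM in DZNep cells at 4 and 0 Gy, against 135 and 161 CPM in DMSO cells at 4 and 0 Gy. The DZNep and DMSO values did not overlap, in the same libraries that the test used. PFKP fell by 1.12 on the log2 scale (SE 0.17, adjusted p = 0.000763 by edgeR). Its ratios were -0.82 at 4 Gy (interval -0.86 to -0.78) and -1.43 at 0 Gy (interval -1.46 to -1.39). PFKL, the liver-type isoform, had 29.9 and 30.3 CPM in DZNep cells, against 47.9 and 52.1 CPM in DMSO cells. It fell by 0.73 (SE 0.16, adjusted p = 0.00634 by edgeR), to nearly the same degree at 4 Gy (-0.68) and at 0 Gy (-0.78). PFKM, the muscle-type isoform, which is not among the 30 genes, did not pass, with 91.9 and 100.8 CPM in DZNep cells against 91.9 and 105.4 CPM in DMSO cells (-0.03, SE 0.15, adjusted p = 0.901 by edgeR).

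Of the enzymes below that step, 2 passed as rises. ALDOC, an aldolase best known from brain, stood at 17.8 and 19.6 CPM with DZNep at 4 and 0 Gy, against 10.2 and 13.4 CPM with DMSO (0.68, SE 0.18, adjusted p = 0.0179 by edgeR). TPI1, which interconverts the triose phosphates, reached 869.8 and 864 CPM in DZNep cells against 572 and 733 CPM in DMSO cells (0.42, SE 0.14, adjusted p = 0.0483 by edgeR). Its ratio was 0.60 (4 Gy) and 0.24 (0 Gy), and DMSO at 4 Gy was the lowest library. TPI1 lost its call with DESeq2, with no filter on low counts and with TMM factors from all symbols, where adjusted p was 0.0589, 0.073 and 0.0571, and over all alternatives adjusted p ran from 0.0221 to 0.24.

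The abundant enzymes showed small differences. GAPDH, the glyceraldehyde phosphate dehydrogenase often used as a reference gene, stood at 17147 and 15892 CPM with DZNep at 4 and 0 Gy, against 18609 and 17521 CPM with DMSO (-0.13, SE 0.11, adjusted p = 0.412 by edgeR). It ranked 1 by counts in both DMSO libraries and 2 in both DZNep libraries. ALDOA, the main aldolase of these cells, differed by -0.09 (SE 0.11). LDHA, the subunit of lactate dehydrogenase that favours lactate, had 5778 and 7253 CPM in DZNep cells, against 5577 and 5555 CPM in DMSO cells (0.22, SE 0.12). DZNep at 0 Gy was the one high library. Together the 14 enzymes made up 3.96% and 4.15% of all counts with DZNep at 4 and 0 Gy, against 4.24% and 4.21% with DMSO.

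The remaining enzymes did not pass the test. HK2, the inducible hexokinase, differed by 0.57 (SE 0.19, adjusted p = 0.052 by edgeR), with 13.1 and 17.4 CPM in DZNep cells at 4 and 0 Gy, against 7.49 and 13.8 CPM in DMSO cells. It passed under RLE scaling (size factors from median ratios) and a 10 CPM filter, where adjusted p was 0.0425 and 0.0244. HK1, the housekeeping hexokinase, differed by 0.13 (SE 0.15), and GPI, the phosphoglucose isomerase, by -0.07 (SE 0.13). PGK1 and PGAM1, a kinase and a mutase of lower glycolysis, differed by -0.09 (SE 0.14) and 0.05 (SE 0.14). The enolase genes ENO1 and ENO2 differed by 0.18 (SE 0.13) and 0.31 (SE 0.23). Processed pseudogenes can draw reads from several of these genes: GENCODE lists 61 for GAPDH, 13 for PGAM1, 6 for LDHA and 4 each for ENO1 and TPI1.

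Both glucose transporter genes rose. SLC2A1 (GLUT1), the basal transporter, stood at 238 and 243 CPM in DZNep cells at 4 and 0 Gy, against 140.2 and 110.1 CPM in DMSO cells. That is a difference of 0.95 (SE 0.16, adjusted p = 0.00103 by edgeR), or 1.94-fold, with ratios of 0.76 at 4 Gy and 1.14 at 0 Gy. SLC2A3 (GLUT3), a high-affinity transporter, had 62.5 and 75.2 CPM in DZNep cells, against 40.5 and 46.9 CPM in DMSO cells (0.65, SE 0.16, adjusted p = 0.00981 by edgeR). Per kb of transcript, SLC2A3 made up 19.8% and 22.5% of the 2 transporters' RNA with DZNep, against 21.3% and 28.5% with DMSO.

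None of the 3 regulators passed the DZNep test, although PFKFB3 did so under the 10 CPM filter (adjusted p = 0.0403). PFKFB3, which makes the sugar bisphosphate that activates phosphofructokinase, differed by 0.42 (SE 0.16, adjusted p = 0.0745 by edgeR) and was higher with DZNep at both doses. PFKFB4, a related enzyme, was low at 2.17 to 3.21 CPM and differed by -0.05 (SE 0.29). PDK1, a kinase that inhibits pyruvate dehydrogenase, stood at 94.9 and 106.7 CPM with DZNep at 4 and 0 Gy, against 120.03 and 81.0 CPM with DMSO. Its ratio was -0.34 at 4 Gy (interval -0.38 to -0.30) and 0.40 at 0 Gy (interval 0.36 to 0.43), which left a fitted effect of 0.03 (SE 0.18).

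**Figure D2:**
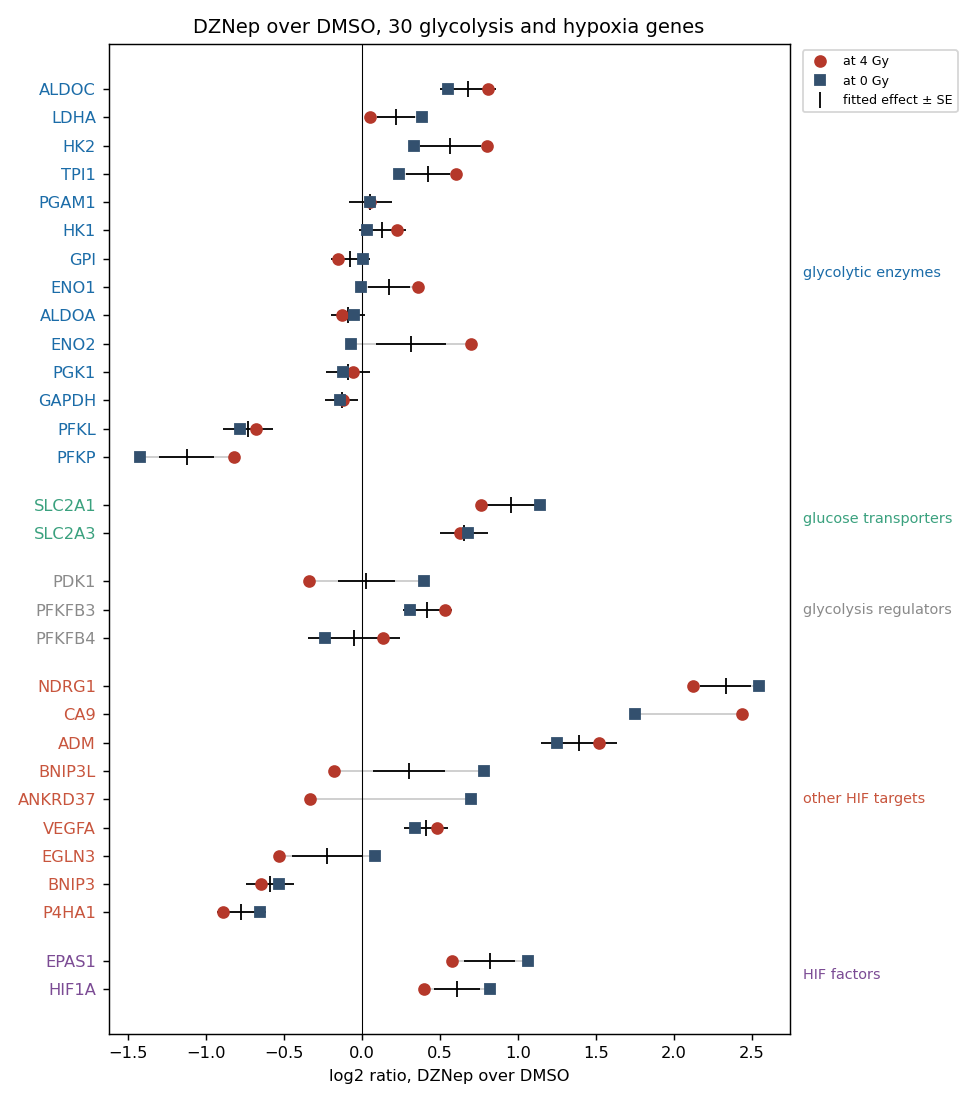
Log2 ratio of DZNep over DMSO (horizontal axis) for each of the 30 genes, at 4 Gy (circles) and at 0 Gy (squares), with the fitted effect and its SE (tick and black line) for the 28 tested genes; grey lines join a gene's 2 ratios. The enzymes run from -1.12 (PFKP) to 0.68 (ALDOC) in fitted effect and the other HIF targets from -0.77 (P4HA1) to 2.33 (NDRG1).

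The other HIF targets went in both directions. NDRG1, a stress-responsive gene induced by low oxygen and by metal chelation, stood at 337 and 342 CPM in DZNep cells at 4 and 0 Gy, against 77.4 and 58.6 CPM in DMSO cells. Its rise of 2.33 (SE 0.16, adjusted p = 3.4e-06 by edgeR), or 5.04-fold, was the largest fitted effect of the 28 tested members. ADM, which encodes the vasodilator peptide adrenomedullin, had 8.60 and 6.07 CPM in DZNep cells, against 2.98 and 2.54 CPM in DMSO cells, a rise of 1.39 (SE 0.25, adjusted p = 0.00176 by edgeR). Both DZNep libraries exceeded both DMSO libraries for each of these genes, which the test on the same libraries already reflects.

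P4HA1 and BNIP3 fell. P4HA1 encodes a catalytic subunit of the hydroxylase that matures collagen. It stood at 51.9 and 57.6 CPM in DZNep cells at 4 and 0 Gy, against 96.2 and 90.8 CPM in DMSO cells (-0.77, SE 0.16, adjusted p = 0.00407 by edgeR). BNIP3, a mitophagy receptor, had 46.5 and 54.3 CPM in DZNep cells, against 72.9 and 78.6 CPM in DMSO cells (-0.59, SE 0.15, adjusted p = 0.0163 by edgeR). GENCODE lists 39 processed pseudogenes for BNIP3, so its count is uncertain. Neither gene's DZNep values overlapped its DMSO values, in the same libraries that the test used.

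The 5 other targets did not pass or were not tested. VEGFA, the angiogenic growth factor, stood at 337 and 291 CPM in DZNep cells at 4 and 0 Gy, against 241 and 229 CPM in DMSO cells (0.41, SE 0.14, adjusted p = 0.0532 by edgeR). VEGFA passed under RLE scaling (adjusted p = 0.0442 by edgeR) and a 10 CPM filter (adjusted p = 0.0325 by edgeR). BNIP3L, the close relative of BNIP3, had 11.8 and 13.96 CPM in DZNep cells, against 13.3 and 8.09 CPM in DMSO cells, which is a difference of 0.30 (SE 0.23). EGLN3, a HIF hydroxylase and HIF target, differed by -0.22 (SE 0.23). CA9, the carbonic anhydrase that is strongly induced by HIF, had only 52 and 71 counts with DZNep at 4 and 0 Gy, against 8 and 21 counts with DMSO. Its ratio was 2.44 at 4 Gy (interval 1.60 to 3.97) and 1.75 at 0 Gy (interval 1.13 to 2.63), and without a filter on low counts its adjusted p was 0.0641. ANKRD37, a small HIF target, had 35 and 68 counts with DZNep against 44 and 44 counts with DMSO. At under 1 CPM both genes sat near the lower end of what these libraries measure.

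HIF1A and EPAS1 RNA both rose with DZNep. HIF1A, the broadly expressed alpha subunit, stood at 567 and 649.9 CPM in DZNep cells at 4 and 0 Gy, against 431 and 368 CPM in DMSO cells. The difference was 0.61 (SE 0.15, adjusted p = 0.0112 by edgeR), with a ratio of 0.40 at 4 Gy and 0.82 at 0 Gy. EPAS1, the HIF2 alpha subunit known from endothelium and lung, had 166 and 144 CPM in DZNep cells, against 111 and 68.9 CPM in DMSO cells (0.82, SE 0.16, adjusted p = 0.00385 by edgeR). For EPAS1 the ratio was 0.58 at 4 Gy and 1.06 at 0 Gy. The antisense gene HIF1A-AS1 had 12.4 and 13.5 CPM in DZNep cells, against 8.79 and 7.15 CPM in DMSO cells. Whether counting used strand is not given in the sources used here, so part of either count may belong to the other gene.

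Set side by side, the enzymes had a median DZNep effect of 0.09 over 14 genes and the other HIF targets 0.30 over 7 tested genes, beside -0.02 over all tested genes. The targets spread more widely, with an SD of 1.12 across genes, against 0.479 across the enzymes and 0.694 across all tested genes. Effects over 0.5 in size were found for 4 of 14 enzymes and 4 of 7 targets, against 30.6% of all tested genes. The median of the targets was -0.18 in the 4 Gy libraries alone and 0.34 in the 0 Gy libraries alone, so its sign turned where either 0 Gy library, DZNep or DMSO, was left out. The enzymes' median was 0.05 at 4 Gy and -0.00062 at 0 Gy, which is what remains without either library of the other dose. Whether enzymes and targets differ as groups was not tested, since genes are not replicates.

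Within each of the paralog pairs below, the same gene was the more abundant in all 4 libraries. Per kb of the longest coding transcript, PFKP made up 72.8% and 67.5% of the PFKP and PFKL RNA in DZNep cells at 4 and 0 Gy, against 74.7% and 76.5% in DMSO cells. PFKM had 28.5 and 31.3 CPM per kb with DZNep at 4 and 0 Gy, against 28.5 and 32.7 CPM per kb with DMSO. PFKP itself had 27.5 and 21.6 CPM per kb with DZNep, against 48.6 and 58.1 CPM per kb with DMSO, so it ranked below PFKM in both DZNep libraries and above it in both DMSO libraries. HK2 made up 10.2% and 12.1% of the HK1 and HK2 RNA with DZNep, against 7.10% and 10.01% with DMSO. BNIP3L made up 16.7% and 16.9% of its pair with BNIP3 in DZNep cells, against 12.6% and 7.54% in DMSO cells. EPAS1 made up 18.3% and 14.5% of its pair with HIF1A with DZNep, against 16.5% and 12.5% with DMSO. ALDOC was at most 0.13% of the aldolase pair, and ENO2 at most 0.448% of the enolase pair. On the same scale the 5 most abundant members were GAPDH (9223 CPM per kb on average), ALDOA (7781), LDHA (2500.4), ENO1 (733) and TPI1 (431). The least abundant were CA9 (0.190) and ANKRD37 (0.338).

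**Figure D3:**
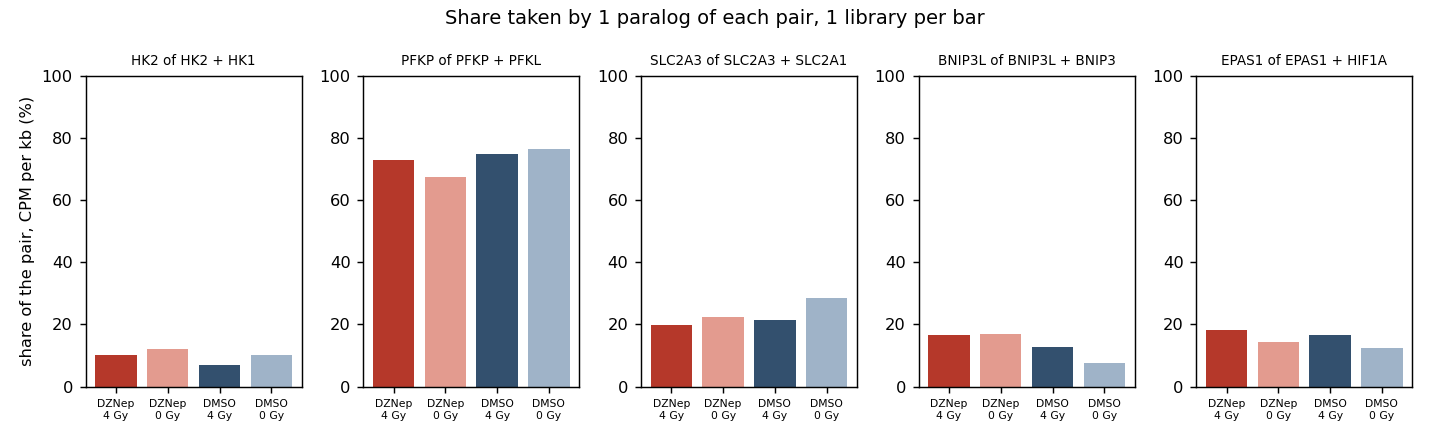
Share of the summed CPM per kb (vertical axis, percent, 0 to 100) taken by the first-named gene of 5 paralog pairs, with 1 bar per library and no error bars. PFKP holds the larger share of its pair in all 4 libraries (67.5% to 76.5%), and HK2, SLC2A3, BNIP3L and EPAS1 hold the smaller share of theirs.

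Further genes of the pathway were counted from lists that hold no member. The lists were chosen with earlier results of these data known, so their shares are no independent test. Of 28 tested genes of glycolysis and pyruvate use, 5 rose with DZNep (17.9%) and 2 fell (7.14%), against 10.8% and 12.3% of all tested genes. PDK4, a relative of PDK1, rose by 1.41 (SE 0.30, adjusted p = 0.00494 by edgeR), and PDP1, the phosphatase that opposes these kinases, rose by 1.04 (SE 0.28). The DZNep ratio of PDK4 was 0.59 at 4 Gy and 2.24 at 0 Gy, and that of PDP1 0.44 and 1.63. For both genes DMSO at 0 Gy was the lowest library, and PDP1 reached 10 CPM only in DZNep at 0 Gy (11.1 CPM). PGM1, which links glycogen to glycolysis, fell by 1.21 (SE 0.18). A further rise, of HKDC1, named after its values were seen, passed the filter on low counts only through its DZNep libraries. Of 34 further HIF targets, 10 rose (29.4%) and 0 fell, against 10.8% and 12.3% of all tested genes. The largest rises were those of STC2, a secreted glycoprotein (1.98, SE 0.16), the lipoprotein receptor gene VLDLR (1.67, SE 0.17), and PPP1R3C, which directs a phosphatase to glycogen (1.09, SE 0.21). The DZNep ratio of PPP1R3C was 0.62 at 4 Gy and 1.57 at 0 Gy.

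Among 14 tested genes of the HIF machinery 3 rose with DZNep (21.4%) and 1 fell (7.14%), against 10.8% and 12.3% of all tested genes. CITED2, which competes with HIF for the coactivators CREBBP and EP300, stood at 1034 and 945 CPM in DZNep cells at 4 and 0 Gy, against 117 and 54.97 CPM in DMSO cells (3.62, SE 0.21, adjusted p = 1.05e-06 by edgeR). CREBBP rose by 0.81 (SE 0.14) and EP300 by 0.52 (SE 0.16), while the kinase gene MTOR fell by 0.53 (SE 0.16). EP300 was named after its values were seen. The oxygen-sensing genes VHL, EGLN1, EGLN2 and HIF1AN and the partner gene ARNT were among the 10 that did not pass. EGLN1 differed by 0.50 (SE 0.18, adjusted p = 0.0608 by edgeR) and EGLN2 by 0.56 (SE 0.22, adjusted p = 0.0849 by edgeR). VHL differed by -0.08 (SE 0.20), HIF1AN by 0.23 (SE 0.19) and ARNT by -0.26 (SE 0.15).

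Radiation changed none of the 28 tested members past the threshold. edgeR's quasi-likelihood test called 0 rises and 0 falls among them, and DESeq2 did the same, against 2.17% rises and 0.897% falls (3.06% in either direction) over all tested genes. Those shares are 290 and 120 genes, and plain library size scaling gave 351 and 266. At an unadjusted p under 0.05 there were 1 higher member, EPAS1 (0.44, SE 0.16, adjusted p = 0.147), and 2 lower members, HK2 (-0.64, SE 0.19, adjusted p = 0.0869) and PGAM1 (-0.39, SE 0.14, adjusted p = 0.137). HK2 passed only where genes were filtered at 10 CPM (adjusted p = 0.0259, against up to 0.998 in the other alternatives). HK2 stood at 13.1 and 7.49 CPM at 4 Gy in DZNep and DMSO cells, against 17.4 and 13.8 CPM at 0 Gy, with ratios of -0.41 in DZNep and -0.88 in DMSO. EPAS1 stood at 166 and 111 CPM at 4 Gy in DZNep and DMSO cells, against 144 and 68.9 CPM at 0 Gy, with ratios of 0.20 and 0.69. PGAM1 had nearly the same ratio in both arms, -0.39 in DZNep and -0.38 in DMSO. Of the 4 HK2 values, DMSO at 4 Gy was the lowest, and of the 4 EPAS1 values, DMSO at 0 Gy was.

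**Figure D4:**
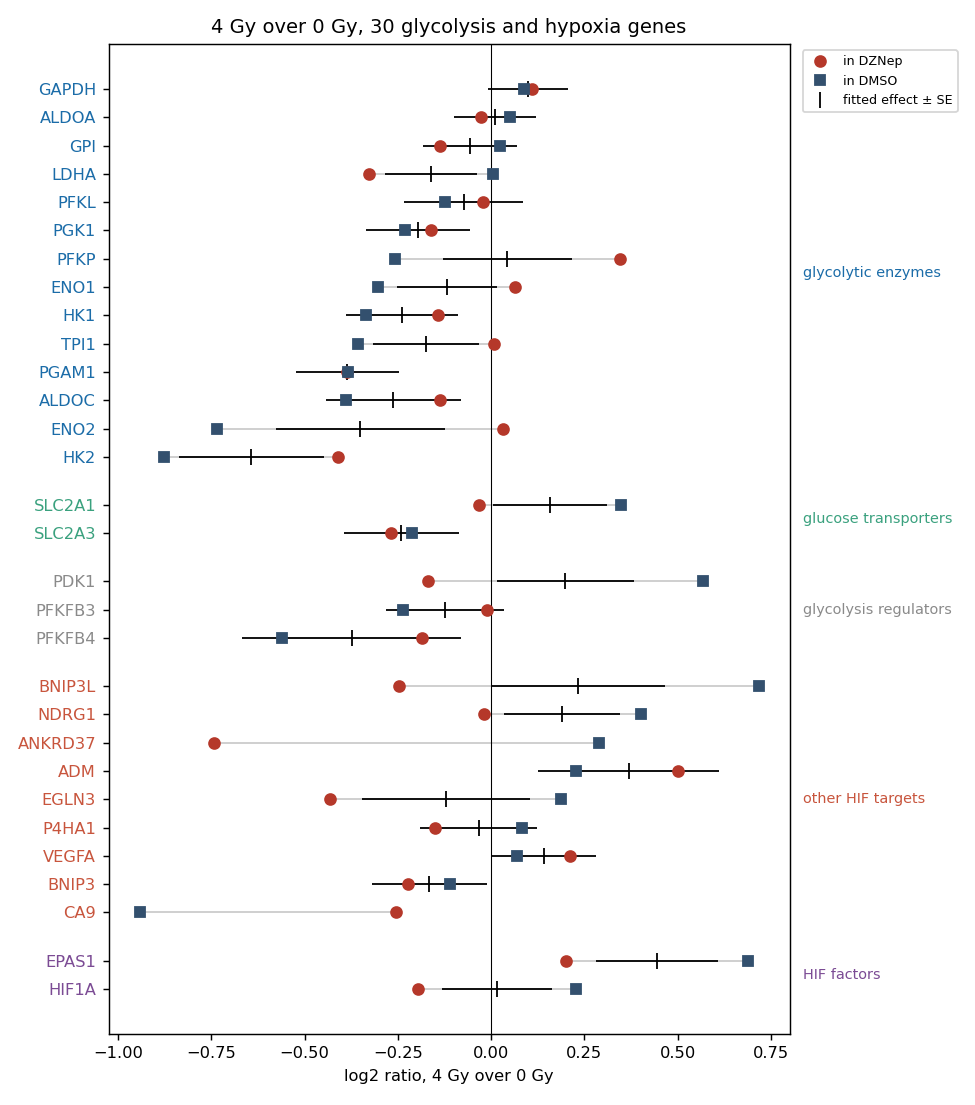
Log2 ratio of 4 Gy over 0 Gy (horizontal axis) for each of the 30 genes, in DZNep (circles) and in DMSO (squares), with the fitted effect and its SE (tick and black line) for the 28 tested genes; grey lines join a gene's 2 ratios. In DZNep 9 of 14 enzymes and 5 of 7 tested HIF targets lie below 0, and in DMSO 10 of 14 and 1 of 7 do.

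In DZNep cells, 9 of 14 enzymes had a ratio of 4 Gy over 0 Gy below 0, beside 47.3% of all tested genes. In DMSO cells, 10 of 14 did, beside 50.3% of all tested genes. The median enzyme ratio was -0.08 in DZNep and -0.28 in DMSO, beside 0.02 and -0.0032 over all tested genes. Among the 7 tested targets, 5 were below 0 in DZNep and 1, BNIP3, in DMSO, with median ratios of -0.15 and 0.19. The fitted medians were -0.17 for the enzymes and 0.14 for the targets, and the targets' sign turned where either DMSO library was left out. With no filter on low counts, where CA9 and ANKRD37 enter, the targets' fitted median was -0.04. ENO2, chosen after its values were seen, had a ratio of 0.03 in DZNep (interval -0.09 to 0.15) and -0.74 in DMSO (interval -0.87 to -0.60).

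Both ratios pointed the same way for 14 of the 28 tested members after radiation (50%), against 65.7% of all tested genes. For DZNep they did so for 21 of 28 (75%), against 74.2%. At a mean of 10 CPM or more, the largest differences between radiation ratios (DZNep minus DMSO) were those of BNIP3L (-0.96), PDK1 (-0.74) and PFKP (0.60). Below that mean, ANKRD37 (-1.03), ENO2 (0.77), CA9 (0.69) and EGLN3 (-0.62) had larger differences than PFKP. BNIP3L had a ratio of -0.25 in DZNep (interval -0.35 to -0.15) and 0.72 in DMSO (interval 0.61 to 0.83). DMSO at 0 Gy was its lowest library (8.09 CPM). PDK1 had -0.17 in DZNep and 0.57 in DMSO, and PFKP 0.35 in DZNep and -0.26 in DMSO. These differences have no error estimate and were not tested. The DZNep and radiation ratios of a gene share libraries, so 1 unusual library moves both.

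Among the listed pathway genes, 3 of 83 tested outside the members passed for radiation (3.61%), near the 3.06% of all tested genes, and these 3 were in the list of further HIF targets. PPP1R3C stood at 86.4 and 56.3 CPM at 4 Gy in DZNep and DMSO cells, against 64.7 and 21.7 CPM at 0 Gy. It rose by 0.89 (SE 0.21, adjusted p = 0.0403 by edgeR), with ratios of 0.42 in DZNep and 1.37 in DMSO. DMSO at 0 Gy, its lowest library, enters its DZNep rise as well. JMJD6, an oxygen-dependent hydroxylase gene, stood at 15.6 and 13.01 CPM at 4 Gy in DZNep and DMSO cells, against 26.6 and 23.4 CPM at 0 Gy, and fell by 0.80 (SE 0.17, adjusted p = 0.0291 by edgeR).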

How the data were processed

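RNA was measured in 4 NCI-H460 libraries, 1 per combination of 2 uM DZNep or DMSO with 4 or 0 Gy; total RNA was extracted with Trizol and the Lexogen SENSE mRNA kit made the libraries, both per the labels' protocols. For each gene symbol the authors deposited a raw count, not normalized. TopHat, edgeR and hg19 are named, per the submitters' processing notes; versions, counter, annotation and strand use: not given in the sources used here. Totals were 116234177 (DZNep 4 Gy), 128255695 (DZNep 0 Gy), 112461380 (DMSO 4 Gy) and 136594350 (DMSO 0 Gy). Even values made up 55.9% to 58.1% of counts from 1 to 59, so mates of 1 fragment may be counted separately; intervals cover counting error only and may be too narrow.

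Genes at 1 CPM or more in at least 2 libraries (13378) were scaled by TMM and tested with edgeR 4.0.16 (R 4.3.3) in an additive quasi-likelihood model with 1 residual and 11.5 prior degrees of freedom. SE was the size of the log2 change over the square root of F. Ratios of 2 libraries used a prior count of 2 and exact conditional binomial 95% intervals. The fit was run on simulated data with drug changes only and no departure from additive effects beyond random spread. That run therefore cannot vouch for the p-values of these libraries. Alternatives were DESeq2 1.42.0, RLE, plain library size, other filters, 1 factor alone, a prior count of 0.5 and leaving out each library; TMM on all symbols and leaving out all enzymes with a pseudogene were added after the data were seen. Transcript lengths and pseudogenes came from GENCODE 29 on GRCh38, promoters from RefSeq. Members and lists were chosen with earlier results of these data known. Values are given for all members past the threshold, those with opposite ratios of at least 0.3, and HIF1A, EPAS1, CA9, VEGFA and CITED2. The rule also takes the 3 largest called changes per list at 10 CPM or more. It further takes the 3 largest differences between pairs at a mean of 10 CPM or more. All other members are listed with their effect. A gene that this rule names is not reported here. Figures were drawn with matplotlib 3.10.9.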

Additional observations from a re-analysis of the deposited data

Results flagged for a closer look

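The ratios of 2 members differed in sign between 4 Gy and 0 Gy, each at least 0.3 in size on the log2 scale. The difference was not tested. PDK1, the pyruvate dehydrogenase kinase gene, had a ratio of DZNep over DMSO of -0.34 at 4 Gy and 0.40 at 0 Gy. ANKRD37, with 35 to 68 counts per library, had -0.33 at 4 Gy (interval -1.03 to 0.33) and 0.70 at 0 Gy (interval 0.16 to 1.31). Its interval at 4 Gy includes 0, so counting error alone leaves the direction of that ratio unsettled.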

How the results depend on the processing

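No paired analysis was possible because each group has 1 library and the labels carry no replicate number. Without the other factor in the model, 3 members rose and 1 fell with DZNep (355 and 366 of all genes), and radiation gave 0 rises and 0 falls over all genes (295 and 229 at an unadjusted p under 0.05 by edgeR). All-gene radiation calls were 447 rises and 214 falls with DESeq2, 134 and 65 with no filter, 590 and 441 with a 10 CPM filter, and 182 and 71 with TMM on all symbols; plain library size gave 266 falls. Under the 10 CPM filter 1 member, HK2, fell with radiation. The cause was not tested. Leaving out each library in turn gave medians with no test, since 3 libraries leave no residual degrees of freedom. The enzymes' median DZNep effect was then -0.00062 to 0.0510 and that of the other HIF targets -0.18 to 0.34. For radiation these medians were -0.28 to -0.08 and -0.15 to 0.19. The enzymes' median DZNep effect was 0.13 without 7 of the enzymes with pseudogenes (all but HK2), and 0.0279 without the 8 that GENCODE lists with any, an alternative chosen after the data were seen. No called member effect changed sign under any alternative, and the prior count of 0.5 moved none of the 120 ratios outside its counting interval. Depth limits CA9 and ANKRD37, both under 1 CPM.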

Other observations

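The pentose phosphate pathway branches from glycolysis to make NADPH and ribose. With DZNep this pathway held 2 falls and 0 rises among 7 tested genes, against 12.3% falls and 10.8% rises over all tested genes. PGLS, its lactonase, stood at 9.74 and 7.48 CPM in DZNep cells at 4 and 0 Gy, against 56.1 and 42.5 CPM in DMSO cells, and fell by 2.52 (SE 0.17, adjusted p = 3.4e-06 by edgeR). TKT, a transketolase, had 2457.5 and 2180.5 CPM in DZNep cells, against 3399 and 3225 CPM in DMSO cells (-0.52, SE 0.12, adjusted p = 0.00946 by edgeR). PKM, the pyruvate kinase gene, had 8586 and 8011.5 CPM in DZNep cells, against 6701 and 7373 CPM in DMSO cells, and did not pass (0.24, SE 0.12, adjusted p = 0.165 by edgeR); it was named after its values were seen.

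The antisense gene SLC2A1-AS1 had 42 and 92 counts in DZNep cells at 4 and 0 Gy, against 206 and 134 counts in DMSO cells, while SLC2A1 itself was higher with DZNep. The DZNep ratio of SLC2A1-AS1 was -2.26 at 4 Gy (interval -2.83 to -1.83) and -0.44 at 0 Gy (interval -0.84 to -0.05). SLC2A1-AS1 did not reach the filter on low counts and was not tested.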
